A study of Mus musculus with 32 samples.

Results

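The genes described here are those of potassium channels and their accessory subunits, taken as every gene whose symbol in the array's probe list starts with Kcn, apart from opposite-strand transcripts. There were 81 such genes among the 18193 genes measured, of which 66 encode pore-forming or silent subunits and 15 encode accessory subunits. They were measured by Affymetrix 3' expression arrays in the striatum of 12-week-old male mice of a CBA X C57Bl/6 background, 1 array per sample. The 4 groups were R6/2 mice given HSP990 (8 arrays), R6/2 mice given vehicle (7), WT mice given HSP990 (10) and WT mice given vehicle (7). R6/2 is a transgenic model of Huntington's disease that expresses a fragment of human huntingtin with an expanded polyglutamine tract from the human promoter, and carries both of its own huntingtin genes. HSP990 is an inhibitor of the chaperone HSP90 and was given by mouth at 12 mg/kg, with striata taken 4 h later, and vehicle animals were gavaged with the suspension medium alone. Each gene is represented by its brightest single-gene probe set, so levels are compared between groups for 1 gene and not between genes.

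Potassium channels set the resting potential of a neuron and end its action potentials. Pore-forming subunits fall into voltage-gated families (Kcna, Kcnc, Kcnd, Kcnh, Kcnq), inward rectifiers (Kcnj), tandem-pore leak channels (Kcnk) and channels opened by intracellular calcium or sodium (Kcnma, Kcnn, Kcnt). Silent subunits (Kcnf, Kcng, Kcns, Kcnv) form no channel alone and alter those of other voltage-gated subunits, while Kcnab, Kcnip, Kcnmb and Kcne genes encode accessory subunits. Medium spiny neurons, the principal cells of the striatum, are known for a strongly negative resting potential held by inward rectifiers of the Kir2 family, for a slowly inactivating current of the Kcna family that delays the first spike, for A-type currents of the Kcnd family and for the M-current of Kcnq subunits.

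Array medians lay within 5.73 to 5.78 and single values ran from 2.15 to 14.7 on the log2 scale. Correlations between any 2 arrays over the 18193 genes, each by its chosen probe set, were 0.969 to 0.997, and no 2 arrays were identical. Of the 81 genes, 47 had a mean above the median of all probe sets (5.77) and 34 lay at or below it, and none was removed. As a check of the treatment, Hspa1b, a chaperone gene induced when HSP90 is inhibited, was 26.5-fold higher under HSP990 in R6/2 and 44-fold higher in WT. The striatal label was checked on 8 measured markers of medium spiny neurons, whose mean level per array was 10.03 to 10.95 in R6/2 HSP990, 9.78 to 11.27 in R6/2 vehicle, 11.81 to 12.29 in WT HSP990 and 11.79 to 12.21 in WT vehicle arrays. Traces of neighbouring tissue varied between arrays of each group: Ttr, a choroid plexus gene, ran from 11.0 to 14.7 over all arrays, and the mean of 3 cortical markers ran from 3.68 to 7.72 in R6/2 HSP990, 3.86 to 8.36 in R6/2 vehicle, 3.64 to 7.33 in WT HSP990 and 4.02 to 7.78 in WT vehicle arrays. The log2 difference between 3' and 5' control probe sets of Gapdh, a sign of RNA integrity, exceeded 2 in 1 R6/2 HSP990 and 1 WT vehicle array.

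The first question was how R6/2 striatum differed from WT striatum on vehicle. Of the 81 genes, 24 were lower in R6/2 and 0 were higher at an adjusted p under 0.05 (limma, Benjamini-Hochberg over all 18193 genes). Over all genes in the same comparison, 9.60% were lower, 11.9% higher and 21.5% called in either direction, against 29.6% of the Kcn genes lower. The median log2 change of the 81 genes was -0.13, beside -0.01 for all genes, and 61 values were negative and 20 positive. Of the 47 brighter Kcn genes 21 were lower, which is 44.7%, beside 12.7% of all genes above the same brightness. In 7 genes every R6/2 vehicle array lay below every WT vehicle array, and in 0 genes did every R6/2 array lie above, separations that 2.37% and 1.53% of all genes showed. In tissue of many cells, fewer cells of a type and less RNA per cell cannot be told apart in any of these values.

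**Figure D1:**
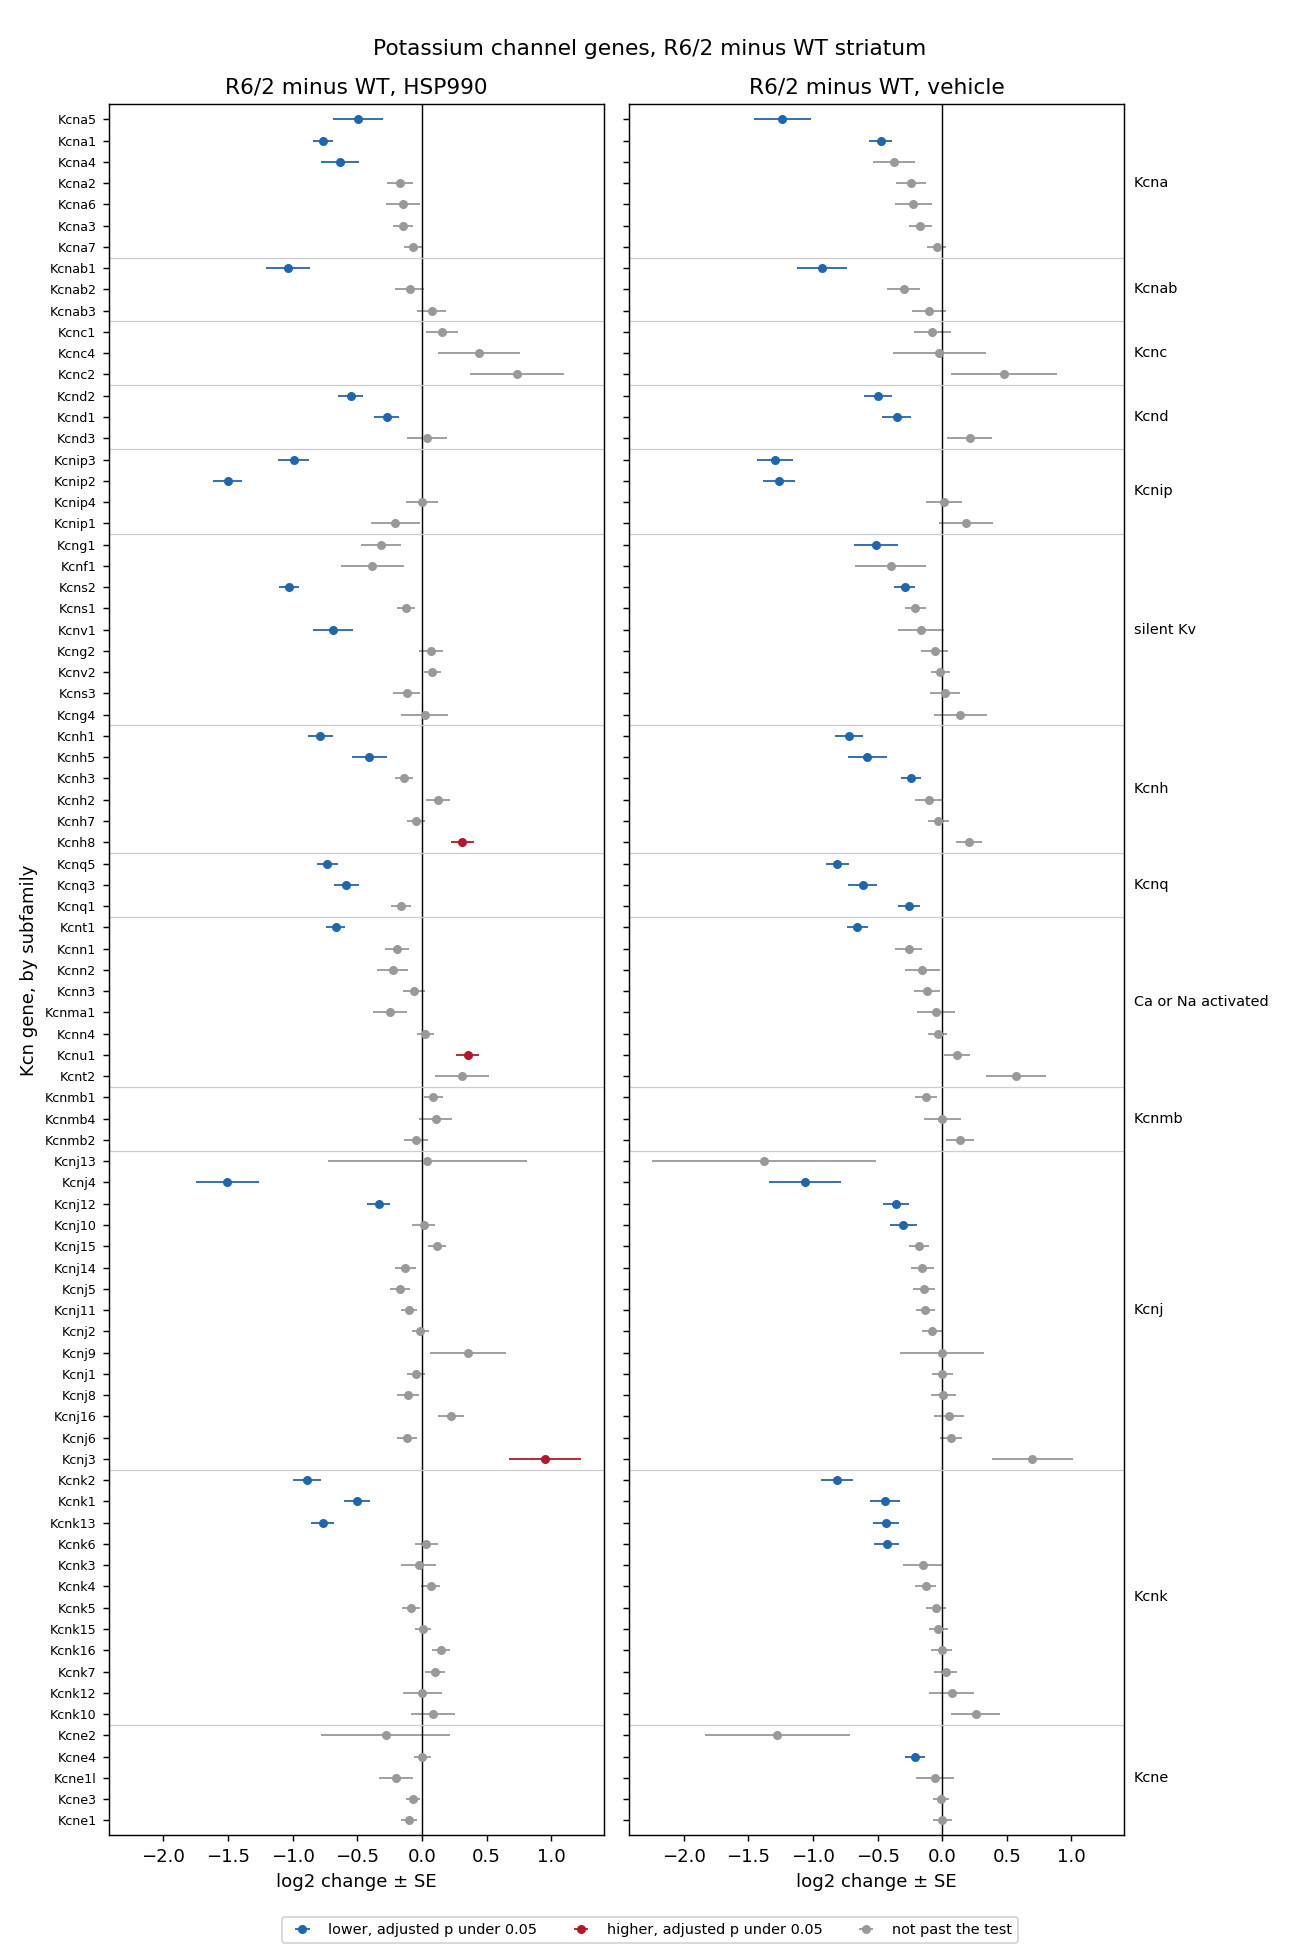
Log2 change of R6/2 minus WT, with its standard error, for each of the 81 Kcn genes under HSP990 (left) and on vehicle (right), grouped by subfamily, with colour for the direction of genes past an adjusted p of 0.05. On vehicle 24 genes lie to the left of 0 and past the test, and none to the right.

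Among the genes called, the largest falls were in accessory subunits of the A-type channel. Kcnip2, a calcium-binding protein that joins Kcnd channels and sets their surface number and inactivation, had a lowest, median and highest log2 level of 9.23, 9.80 and 10.36 in R6/2 vehicle arrays, against 10.73, 11.11 and 11.20 in WT vehicle arrays. The groups did not overlap, and Kcnip2 was 2.4-fold lower in R6/2 (log2 change -1.26 ± 0.13, SE, adjusted p = 1.36e-08). On the mean of its probe sets Kcnip2 changed by -0.67 (adjusted p = 0.00403). Such a mean gives dim probe sets the same weight as bright ones. Kcnip3, which also binds Kcnd channels and acts as a calcium-regulated transcriptional repressor, had 6.63, 7.07 and 7.25 in R6/2 vehicle arrays, against 7.61, 8.32 and 8.64 in WT vehicle arrays. All R6/2 arrays lay below all WT arrays, with a 2.45-fold lower mean (log2 change -1.29 ± 0.14, adjusted p = 3.05e-08). Kcnip1 and Kcnip4, the other subunits of this family, did not pass the test, with log2 changes of 0.19 and 0.02.

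Of the 3 pores these proteins serve, 2 were lower. Kcnd2, the main somatodendritic A-type pore, had 10.25, 10.88 and 11.04 in R6/2 vehicle arrays, against 11.08, 11.20 and 11.37 in WT vehicle arrays. The groups were apart, but by a narrow margin (log2 change -0.50 ± 0.11, adjusted p = 0.00105). The mean of the probe sets gave -0.31 for Kcnd2 and -0.22 for Kcnd1, both still called. For Kcnd2 it includes a probe set that stayed between 2.65 and 3.55 on all arrays. Kcnd1 was also lower (log2 change -0.35), although its call was lost without WT vehicle replicate 3 (adjusted p = 0.0535), while Kcnd3 at 0.21 did not pass. Kcna1, a low-threshold delayed rectifier of axons, had 10.36, 10.82 and 11.06 in R6/2 vehicle arrays, against 11.06, 11.19 and 11.44 in WT vehicle arrays, which meet at the top of the R6/2 range (log2 change -0.47 ± 0.09, adjusted p = 0.000188). Kcnab1, the beta subunit that speeds inactivation of Kcna channels, had 9.85, 10.82 and 11.10 in R6/2 vehicle arrays, against 10.89, 11.46 and 12.04 in WT vehicle arrays, overlapping in part (log2 change -0.93 ± 0.20, adjusted p = 0.000699). The mean of the probe sets of Kcnab1 was not called (adjusted p = 0.0961).

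Kcna5, a delayed rectifier also found in heart and glia, showed the third largest fall among the genes called. It had 6.84, 7.90 and 8.71 in R6/2 vehicle arrays, against 8.29, 9.18 and 9.64 in WT vehicle arrays, and was 2.36-fold lower (log2 change -1.24 ± 0.22, adjusted p = 8.62e-05). The overlap came from WT vehicle replicate 7, at 8.29, whereas the other WT vehicle arrays lay from 9.07 to 9.64. Of the remaining Kcna genes, Kcna4, an inactivating pore, stood at -0.37 (adjusted p = 0.104) and Kcna2, a partner of Kcna1, at -0.24 (adjusted p = 0.134), so that 2 of 7 Kcna genes passed the test.

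All 3 measured Kcnq genes were lower. Kcnq5, an M-current subunit, had 8.11, 8.38 and 8.79 in R6/2 vehicle arrays, against 8.94, 9.33 and 9.36 in WT vehicle arrays, with no overlap (log2 change -0.81 ± 0.09, adjusted p = 7.96e-08). Kcnq3, a subunit of the classical M-channel, had 9.62, 9.96 and 10.24 in R6/2 vehicle arrays, against 10.29, 10.45 and 10.83 in WT vehicle arrays, also apart (log2 change -0.62 ± 0.11, adjusted p = 0.000105). Kcnq1, known mainly from heart and epithelia, lay among the dimmer probe sets and changed by -0.26, a call that was lost without any 1 of R6/2 vehicle replicates 3, 4 and 7 or WT vehicle replicates 3, 5 and 7 (adjusted p from 0.0514 to 0.0890).

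Kcnh1, the ether-a-go-go voltage-gated pore, had 7.94, 8.25 and 8.59 in R6/2 vehicle arrays, against 8.82, 8.93 and 9.16 in WT vehicle arrays. Every R6/2 array was the lower (log2 change -0.72 ± 0.11, adjusted p = 1.25e-05). Kcnh5, its nearest relative, lay among the dimmer probe sets and changed by -0.58. Kcnh3, an ether-a-go-go-like pore of the forebrain, changed by -0.24. The Kcnh3 value depended on the probe set: those with the next highest means gave -1.15 and -1.12, and the mean of its probe sets -0.70. The chosen one also lost its call without any 1 of R6/2 vehicle replicates 2 and 3 or WT vehicle replicates 5 and 6 (adjusted p from 0.0568 to 0.0750). In all, 3 of 6 Kcnh genes were lower.

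Kcnt1, a channel opened by intracellular sodium, was the only one of 8 pores of the Kcnma, Kcnn, Kcnt and Kcnu families lower on vehicle. It had 8.04, 8.58 and 8.86 in R6/2 vehicle arrays, against 8.92, 9.22 and 9.30 in WT vehicle arrays, without overlap (log2 change -0.66 ± 0.08, adjusted p = 6.47e-07). Kcnma1, the large-conductance calcium-activated pore, had a log2 difference of -0.05 (adjusted p = 0.864), and Kcnn3, a small-conductance one, of -0.12 (adjusted p = 0.448). The dimmer probe sets of Kcnma1 had lower medians in R6/2, the widest apart at 7.14 in R6/2 vehicle and 7.48 in WT vehicle arrays, all overlapping. None of the 3 measured Kcnmb genes, beta subunits of Kcnma1 channels, passed the test. Neither did any of 3 Kcnc genes, the fast delayed rectifiers of interneurons, with Kcnc1 at -0.08 (adjusted p = 0.763). For Kcnc1 too the dimmer probe sets had lower R6/2 medians, the widest apart at 7.99 in R6/2 vehicle and 8.45 in WT vehicle arrays, all overlapping.

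Among leak channels 4 of 12 were lower. Kcnk2, a mechano- and lipid-sensitive background channel, had 9.05, 9.37 and 9.76 in R6/2 vehicle arrays, against 9.76, 10.33 and 10.49 in WT vehicle arrays, which only just met (log2 change -0.81 ± 0.12, adjusted p = 9.63e-06). Kcnk13, known from microglia, had 6.23, 6.37 and 6.55 in R6/2 vehicle arrays, against 6.48, 6.79 and 7.35 in WT vehicle arrays, overlapping (log2 change -0.43 ± 0.10, adjusted p = 0.0016). The mean of the probe sets of Kcnk13 gave -0.25 (adjusted p = 0.00435). The only other probe set in that mean stayed between 2.32 and 2.79 on all arrays, near the bottom of the scale. Kcnk1 and Kcnk6, both weak inward rectifying leak channels, changed by -0.44 and -0.43, and Kcnk1 was not called on the mean of its probe sets (adjusted p = 0.109).

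Of 15 inward rectifiers, 3 were lower on vehicle. Kcnj4, a Kir2 pore of medium spiny neuron dendrites, had 7.14, 7.38 and 7.94 in R6/2 vehicle arrays, against 7.67, 8.70 and 9.05 in WT vehicle arrays. Most WT arrays lay above the R6/2 range, and the lowest fell within it, for a 2.08-fold lower mean (log2 change -1.06 ± 0.28, adjusted p = 0.00568). Kcnj12, another Kir2 pore, changed by -0.36 ± 0.10 (adjusted p = 0.0104). Kcnj2, the Kir2 pore best known from these neurons, was read by a probe set that stayed near the bottom of the scale, between 2.66 and 3.17 on all arrays, so a change in it was not measurable here (-0.08, adjusted p = 0.528). Kcnj10, the astrocyte pore that clears extracellular potassium, had 9.07, 9.47 and 9.88 in R6/2 vehicle arrays, against 9.56, 9.84 and 10.07 in WT vehicle arrays (log2 change -0.30 ± 0.10, adjusted p = 0.0316). Its call was lost without any 1 of R6/2 vehicle replicates 1, 2 and 4 or WT vehicle replicates 1, 6 and 7 (adjusted p from 0.0526 to 0.0854). Kcnj16, its partner in astrocytes, and the G-protein-gated pores Kcnj3 and Kcnj9 gave 0.05, 0.70 and -0.0012 and did not pass.

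The remaining genes called were a pair of silent subunits, Kcns2 at -0.29 ± 0.08 (adjusted p = 0.0117) and Kcng1 at -0.51, and the accessory subunit Kcne4 at -0.21. Kcne4 lay among the dimmer probe sets. The call of Kcng1 was lost without any 1 of R6/2 vehicle replicates 2, 3, 5 and 7 or WT vehicle replicates 1, 2 and 3 (adjusted p from 0.0501 to 0.0907), and that of Kcne4 without any 1 of 23 arrays (from 0.0504 to 0.119). On the mean of its probe sets Kcng1 changed by -0.28 (adjusted p = 0.0443). The 57 genes that did not pass had log2 changes from -1.38 (Kcnj13) to 0.70 (Kcnj3). Kcnt2, a second sodium-activated pore, stood at 0.57 and was called higher without R6/2 vehicle replicate 2 or 5 (adjusted p = 0.0407 and 0.0458). Kcne2, an accessory subunit of choroid plexus, stood at -1.28 with a standard error of 0.56 (adjusted p = 0.106). The Kcnj13 value, for an inward rectifier of choroid plexus and other epithelia, had a standard error of 0.87 and an adjusted p of 0.284. The arrays with most Kcnj13 were high in Ttr, whose part in the value was not tested: the 4 highest Kcnj13 levels, 9.90, 9.60, 8.95 and 8.76, were in WT HSP990 replicate 2, WT vehicle replicate 7, R6/2 HSP990 replicate 8 and WT vehicle replicate 4, whose Ttr levels were 14.63, 14.64, 14.66 and 14.59.

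**Figure D2:**
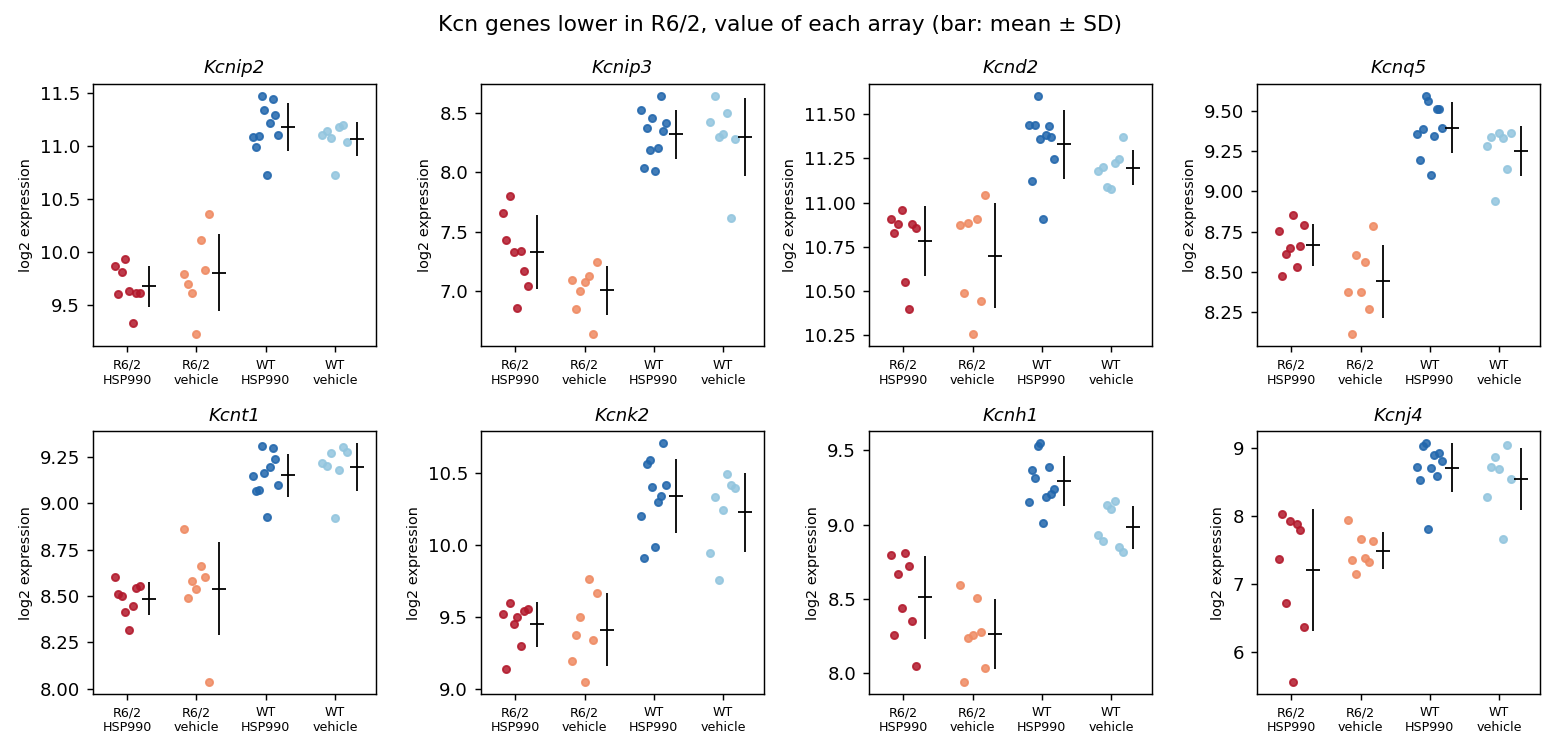
Log2 expression of 8 Kcn genes lower in R6/2, 1 point per array, with the mean and SD of each group as a bar beside its points, for R6/2 HSP990, R6/2 vehicle, WT HSP990 and WT vehicle arrays. Kcnip2 and Kcnip3 are apart by genotype under both treatments, while R6/2 and WT levels of Kcnj4 overlap.

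Cell type markers moved in the same comparison. Of the 8 medium spiny neuron markers 7 were lower in R6/2 on vehicle, with a median log2 change of -1.40, and Ppp1r1b, a dopamine signalling protein of these neurons, changed by -2.0 ± 0.23. Of 6 interneuron markers 3 were lower, as were 1 of 6 astrocyte, 1 of 4 oligodendrocyte, 1 of 4 microglia and 0 of 4 endothelial markers. The mean level of the interneuron list was 7.35 to 7.55 in R6/2 vehicle and 7.70 to 8.04 in WT vehicle arrays, and that of the astrocyte list was 9.40 to 10.37 in R6/2 vehicle and 9.62 to 10.10 in WT vehicle arrays. The part of these shifts in the Kcn results was not tested. Of 22 other genes that partner with potassium channels or move potassium, 3 were lower on vehicle and 0 higher, which is 13.6%, beside 9.60% of all genes lower and 21.5% called in either direction. They were Ank3, the ankyrin that anchors Kcnq channels at the axon initial segment (log2 change -0.25 ± 0.06, adjusted p = 0.00206), Atp1b2, a glial sodium pump subunit (-0.53 ± 0.13, adjusted p = 0.00368), and Abcc8, the sulphonylurea receptor of ATP-sensitive channels (-0.48 ± 0.14, adjusted p = 0.0129). The median over these 22 genes was -0.09.

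The 250 bases before the transcription start are shown for 4 of the genes lower on vehicle, among them the accessory subunit Kcnip2 and its pore Kcnd2. They are the genes with the smallest adjusted p among those with exactly 1 window in RefSeq's GRCm38.p6 annotation, at chr19:45816064-45816313 (minus strand) for Kcnip2, chr6:21215096-21215345 (plus) for Kcnd2, chr1:192190527-192190776 (plus) for Kcnh1 and chr6:126535556-126535805 (minus) for Kcna5. Capitals mark 3 motifs, read on both strands. The GC box was searched as GGGCGG. The NF-Y box, named for the factor known to bind it, was searched as CCAAT. The heat shock element core was searched as GAANNTTC or TTCNNGAA.
Kcnip2: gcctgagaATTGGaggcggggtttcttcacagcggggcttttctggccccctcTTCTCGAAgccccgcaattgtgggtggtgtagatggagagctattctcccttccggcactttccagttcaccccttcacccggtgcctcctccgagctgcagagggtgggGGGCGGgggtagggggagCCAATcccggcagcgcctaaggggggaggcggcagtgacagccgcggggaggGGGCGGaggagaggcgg
Kcnd2: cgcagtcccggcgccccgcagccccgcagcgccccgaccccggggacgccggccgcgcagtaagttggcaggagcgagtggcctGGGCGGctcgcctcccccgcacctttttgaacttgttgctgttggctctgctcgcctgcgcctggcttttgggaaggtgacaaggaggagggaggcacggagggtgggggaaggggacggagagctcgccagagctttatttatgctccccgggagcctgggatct
Kcnh1: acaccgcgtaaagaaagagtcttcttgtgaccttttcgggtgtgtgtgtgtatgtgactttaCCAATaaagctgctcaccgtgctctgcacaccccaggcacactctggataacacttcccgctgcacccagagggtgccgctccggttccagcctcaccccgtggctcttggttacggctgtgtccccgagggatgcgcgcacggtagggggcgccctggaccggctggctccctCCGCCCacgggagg
Kcna5: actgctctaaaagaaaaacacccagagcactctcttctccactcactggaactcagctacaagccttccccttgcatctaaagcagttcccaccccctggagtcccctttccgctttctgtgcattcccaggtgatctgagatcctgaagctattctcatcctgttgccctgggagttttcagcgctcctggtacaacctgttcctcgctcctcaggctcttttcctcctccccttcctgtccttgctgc
Kcnip2 held 2 GC boxes, 2 NF-Y boxes and 1 heat shock element core, Kcnd2 held 1 GC box, Kcnh1 held 1 GC box and 1 NF-Y box, and Kcna5 held none of these letters. No window of the 4 held the cyclic AMP response element (TGACGTCA) or a TATA box (TATAAA). A GC box was in 9 of 15 genes lower on vehicle that had a window and in 29 of 47 other Kcn genes, beside 32.7% of all 32851 windows. A gene was counted if any of its windows held the letters, and 11 of the 15 genes had 1 window. Shares of genes and shares of windows are unlike units, so no enrichment over all windows can be read from them. The NF-Y box was in 6 of 15 and 17 of 47 (33.8% of all windows), the heat shock element core in 2 and 7 (12.8%), the TATA box in 0 and 3 (12.4%) and the cyclic AMP response element in 0 and 0 (1.55%). A match is a run of letters and not a site shown to be bound.

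The same comparison was made under HSP990. Its group means come from other arrays than those on vehicle, while the estimate of the spread and the choice of probe sets were shared over all 32 arrays. Here 20 of the 81 genes were lower in R6/2 and 3 were higher, 24.7% and 3.70% of them, where 11.0% of all genes were lower and 22.6% higher (33.6% in either direction). The median log2 change of the Kcn genes was -0.10 and that of all genes 0.04. In 10 genes every R6/2 array lay below every WT array, which held for 3.36% of all genes, and in 0 genes did every R6/2 array lie above, which held for 6.04%. Of the 24 genes lower on vehicle 18 were also lower under HSP990, which is 18 of the 20 lower there, and 21 of the 24 had a negative change. The same shares were not computed over all genes, so this recurrence is not shown to be particular to Kcn genes.

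Kcnip2 had 9.33, 9.62 and 9.94 in R6/2 HSP990 arrays, against 10.73, 11.16 and 11.48 in WT HSP990 arrays, a 2.83-fold difference (log2 change -1.50 ± 0.11, adjusted p = 1.01e-11). Kcnip3 had 6.85, 7.33 and 7.80 in R6/2 HSP990 arrays, against 8.01, 8.36 and 8.65 in WT HSP990 arrays (log2 change -0.99 ± 0.12, adjusted p = 9.52e-08). Neither gene showed any overlap between the genotypes. Kcnj4 had 5.56, 7.59 and 8.04 in R6/2 HSP990 arrays, against 7.82, 8.77 and 9.07 in WT HSP990 arrays, overlapping at WT HSP990 replicate 5 (log2 change -1.50 ± 0.25, adjusted p = 1.23e-05). The lowest Kcnj4 level was in R6/2 HSP990 replicate 5, whose mean 3' difference of Gapdh and Actb was the largest of all arrays (4.56), and that of WT HSP990 replicate 5 was the largest of its group (1.61). Kcnj4 changed by -1.27 without R6/2 HSP990 replicate 5 and by -1.12 with the 3' difference as a covariate (adjusted p = 1.65e-05 and 0.000115). Kcnab1 had 9.90, 10.69 and 11.03 in R6/2 HSP990 arrays, against 11.19, 11.65 and 11.85 in WT HSP990 arrays, and its groups were apart here (log2 change -1.04 ± 0.17, adjusted p = 1.56e-05). Kcna1 had 10.18, 10.49 and 10.59 in R6/2 HSP990 arrays, against 11.02, 11.24 and 11.40 in WT HSP990 arrays, also apart (log2 change -0.77 ± 0.08, adjusted p = 4.9e-09).

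Among pores of other families, Kcnq5 had 8.47, 8.66 and 8.85 in R6/2 HSP990 arrays, against 9.10, 9.39 and 9.60 in WT HSP990 arrays (log2 change -0.73 ± 0.08, adjusted p = 1.43e-08). Kcnt1 had 8.32, 8.50 and 8.60 in R6/2 HSP990 arrays, against 8.93, 9.15 and 9.31 in WT HSP990 arrays (log2 change -0.67 ± 0.07, adjusted p = 1.88e-08). Both were without overlap, as were the next pair. Kcnk2 had 9.14, 9.51 and 9.60 in R6/2 HSP990 arrays, against 9.91, 10.37 and 10.70 in WT HSP990 arrays (log2 change -0.89 ± 0.11, adjusted p = 1.12e-07). Kcnh1 had 8.04, 8.55 and 8.81 in R6/2 HSP990 arrays, against 9.01, 9.28 and 9.55 in WT HSP990 arrays (log2 change -0.79 ± 0.10, adjusted p = 1.64e-07).

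Kcnk13 had 5.95, 6.24 and 6.55 in R6/2 HSP990 arrays, against 6.73, 7.03 and 7.20 in WT HSP990 arrays, without overlap (log2 change -0.77 ± 0.09, adjusted p = 3.16e-08), and changed by -0.38 on the mean of its probe sets (adjusted p = 3.48e-06). The microglia list moved with it: 3 of its 4 markers were lower, and its mean level was 8.19 to 8.72 in R6/2 HSP990 and 8.80 to 8.94 in WT HSP990 arrays. Kcnq3 overlapped between the genotypes (log2 change -0.59 ± 0.10, adjusted p = 1.59e-05), and so did Kcnd2 (log2 change -0.55, adjusted p = 3.22e-05; -0.35 on the mean of its probe sets). Kcnj12 changed by -0.33, Kcnk1 by -0.50 and Kcnd1 by -0.27, and the Kcnd1 call was lost without any 1 of R6/2 HSP990 replicates 3, 6 and 7 or WT HSP990 replicates 2 and 5 (adjusted p from 0.0535 to 0.0782). With the 3' difference as a covariate Kcnd1 changed by -0.41. Kcnh5, at -0.41, lost its call with the 3' difference of each array as a covariate (adjusted p = 0.0662), and Kcna5, at -0.50, without any 1 of 17 arrays (adjusted p from 0.0503 to 0.117). Of the other cell type markers, 7 of 8 for medium spiny neurons (median log2 change -1.73), 5 of 6 for interneurons, 4 of 6 for astrocytes, 3 of 4 for oligodendrocytes and 1 of 4 for endothelium were lower. The endothelial list had a median of -0.08. Their part in the Kcn results was not tested.

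Genes called under HSP990 and not on vehicle were Kcna4 and the silent subunit Kcnv1, both lower (log2 changes -0.63 and -0.69), and Kcnj3, Kcnu1 and Kcnh8, which were higher. Kcnj3, the common subunit of G-protein-gated rectifiers, had 7.18, 7.55 and 9.01 in R6/2 HSP990 arrays, against 6.27, 6.63 and 7.77 in WT HSP990 arrays, overlapping (log2 change 0.95 ± 0.28, adjusted p = 0.00715). The highest Kcnj3 levels over all arrays, 9.73 and 9.31, were in R6/2 vehicle replicates 7 and 4, which lie outside the groups compared here. Neurod6, a cortical projection neuron gene, was at 10.60 and 8.95 in those arrays. The lowest Kcnj3 level, 6.27, was in WT HSP990 replicate 4, where Neurod6 was at 3.00. None of the 3 cortical markers was called between the genotypes under HSP990, where 2 had a negative and 1 a positive change (median log2 change -0.27). Their part in the Kcnj3 value was not tested. Kcnj3 was not called on the mean of its probe sets (log2 change 0.44, adjusted p = 0.0638). That mean includes dim probe sets, 1 of them between 3.52 and 4.97 on all arrays. Kcnu1, a pore known from sperm, changed by 0.35. Kcnh8, which lay among the dimmer probe sets, changed by 0.31. Kcnj10, Kcnk6 and Kcne4, lower on vehicle, were at 0.01, 0.04 and 0.0044 under HSP990 and not called. Kcnh3, Kcng1 and Kcnq1, also lower on vehicle, had negative changes under HSP990 and were not called either. The Kcnh3 result again depended on the probe set. Those with the next highest means ran from 6.46 to 7.54 and 5.95 to 7.43 in R6/2 HSP990 arrays. In WT HSP990 arrays they ran from 7.67 to 8.34 and 7.70 to 8.37, without overlap, while the dimmest one overlapped.

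**Figure D3:**
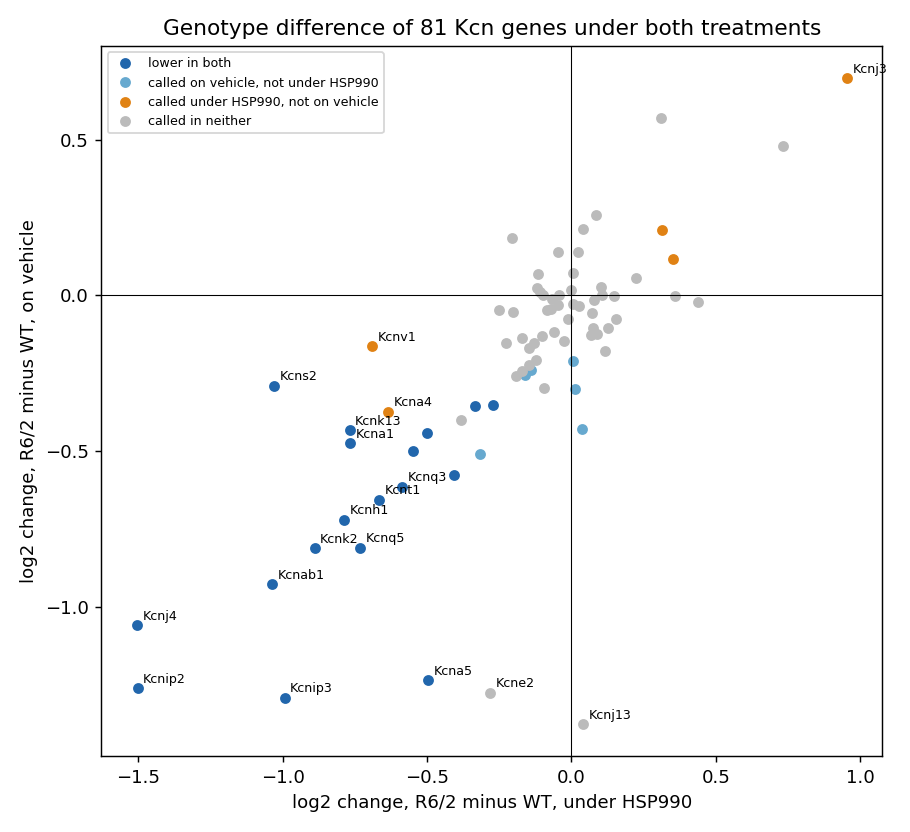
Log2 change of R6/2 minus WT under HSP990 (x axis) and on vehicle (y axis) for the 81 Kcn genes, 1 point per gene, coloured by the comparison in which it was called. The 18 genes lower in both lie in the lower left, with Kcnip2 at -1.50 and -1.26.

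Of the 22 partner genes, 6 were lower and 2 higher in R6/2 under HSP990, which is 36.4% called, near the 33.6% of all genes. Those with the smallest adjusted p were the scaffold Dlg2, which clusters Kcna and Kcnj channels at synapses (log2 change -0.98 ± 0.18, adjusted p = 4.27e-05), Ank3 (-0.21 ± 0.05, adjusted p = 0.0013), the related scaffold Dlg4 (-1.50 ± 0.37, adjusted p = 0.00176) and Abcc8 (-0.43 ± 0.12, adjusted p = 0.0069). Dlg4 and Dlg2 were lowest, at 5.86 and 8.66, in R6/2 HSP990 replicate 5, the array with the largest 3' difference for Gapdh (5.01). The log2 change of Dlg4 was -1.06 without that array and -0.81 with the 3' difference as a covariate (adjusted p = 0.00201 and 0.0212). That of Dlg2 was -0.82 and -0.71 (adjusted p = 7.56e-05 and 0.000474). Ank3 and Abcc8 kept their calls in both checks, with somewhat larger changes. These checks were chosen after seeing the data. No partner gene was called for HSP990 in either genotype.

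The next question was what HSP990 changed within a genotype. The WT vehicle arrays serve both the WT response and the vehicle comparison of the genotypes, and the R6/2 arrays likewise, so the values below are set beside those above without a relation being drawn. In R6/2, 3 of the 81 genes were lower under HSP990 and 0 were higher, 3.70% of them, beside 0.918% of all genes lower, 2.18% higher and 3.09% in either direction. Their median log2 change was -0.04, beside 0.02 for all genes.

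Kcnv1, a silent subunit that dampens the channels it joins, had 6.23, 6.47 and 7.37 in R6/2 HSP990 arrays, against 6.88, 7.49 and 7.95 in R6/2 vehicle arrays. Most HSP990 arrays lay below the vehicle range and the rest within it, for a 1.83-fold lower mean (log2 change -0.87 ± 0.17, adjusted p = 0.00197). Kcns2, another silent subunit, had 7.62, 7.84 and 7.96 in R6/2 HSP990 arrays, against 8.07, 8.22 and 8.55 in R6/2 vehicle arrays. All HSP990 arrays were lower (log2 change -0.41 ± 0.08, adjusted p = 0.00236), a separation seen in 0.170% of all genes. Kcnn2, a small-conductance channel opened by calcium, had 7.04, 7.24 and 7.54 in R6/2 HSP990 arrays, against 7.31, 7.70 and 8.74 in R6/2 vehicle arrays (log2 change -0.49 ± 0.13, adjusted p = 0.0339). Its groups overlapped, and the call was lost without any 1 of R6/2 HSP990 replicates 1, 2, 3, 7 and 8 or R6/2 vehicle replicates 6 and 7 (adjusted p from 0.0516 to 0.0810).

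In WT, HSP990 left 3 of the 81 genes lower and 1 higher, 4.94% of them, beside 3.57% of all genes lower, 2.24% higher and 5.80% in either direction, so the share of Kcn genes called was near that of all genes. Their median log2 change was -0.08, beside -0.03 for all genes. Kcnk6 had 5.60, 5.79 and 6.09 in WT HSP990 arrays, against 6.18, 6.68 and 6.85 in WT vehicle arrays. The groups were apart, a separation in this direction seen in 0.742% of all genes (log2 change -0.78 ± 0.09, adjusted p = 4.02e-07). Kcna5 had 7.62, 8.13 and 8.43 in WT HSP990 arrays, against 8.29, 9.18 and 9.64 in WT vehicle arrays, with WT vehicle replicate 7 the only vehicle array within the HSP990 range (log2 change -1.07 ± 0.20, adjusted p = 0.000752).

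Kcnn2 had 7.21, 7.51 and 7.83 in WT HSP990 arrays, against 7.65, 7.96 and 8.21 in WT vehicle arrays (log2 change -0.42 ± 0.13, adjusted p = 0.0423), and its call was lost without any 1 of 14 arrays (adjusted p from 0.0526 to 0.0888). It was the one gene called lower in both genotypes, and both calls were lost with the 3' difference of each array as a covariate. The WT call of Kcnn2 was also lost without the arrays with a Gapdh difference over 2. Its R6/2 call was also lost when only the groups compared were fitted. Kcns2, the gene called higher, had 8.53, 8.92 and 9.16 in WT HSP990 arrays, against 8.32, 8.57 and 8.68 in WT vehicle arrays, overlapping (log2 change 0.33 ± 0.08, adjusted p = 0.00801), and was not called on the mean of its probe sets (adjusted p = 0.148). In R6/2 the log2 difference under HSP990 was -0.31 for Kcnk6 (adjusted p = 0.0678) and -0.33 for Kcna5 (adjusted p = 0.491), and in WT it was -0.34 for Kcnv1 (adjusted p = 0.241).

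**Figure D4:**
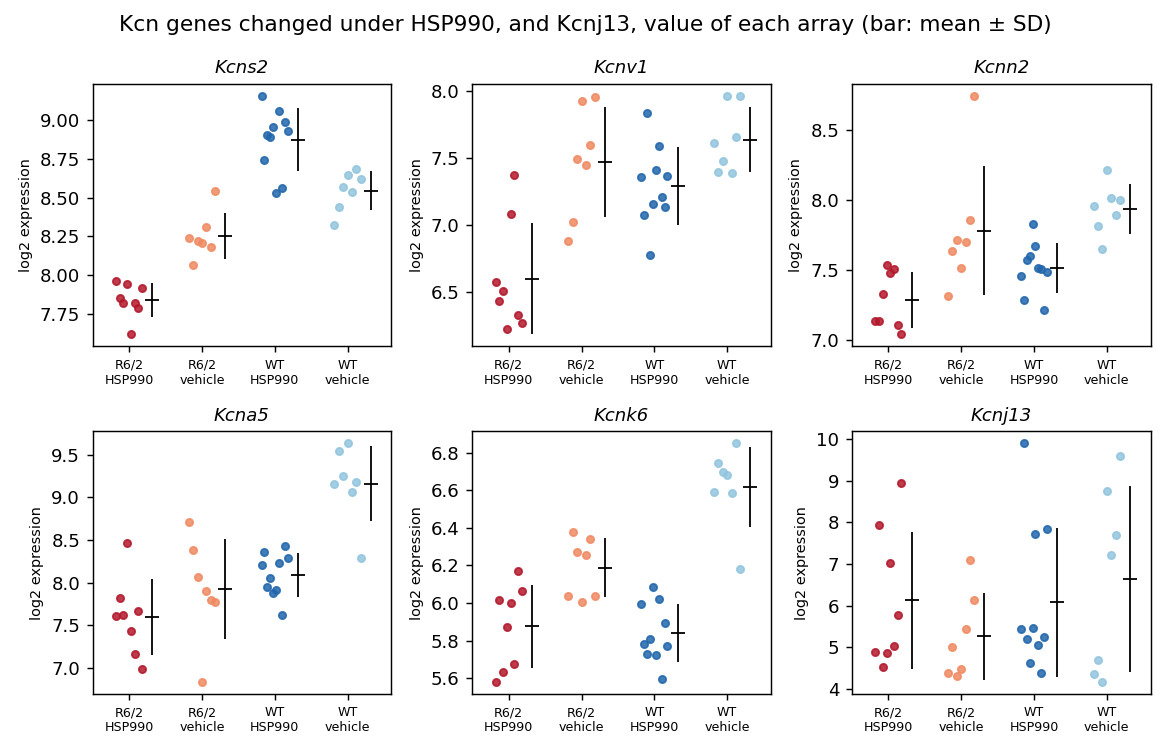
Log2 expression of the 5 Kcn genes changed by HSP990 in R6/2 or WT, and of Kcnj13, 1 point per array with the mean and SD of each group beside its points. Kcns2 is lowest in R6/2 HSP990 arrays (7.62 to 7.96) and highest in WT HSP990 arrays (8.53 to 9.16), and Kcnj13 spreads widely within every group.

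Whether the response to HSP990 differed between the genotypes was tested as an interaction, the R6/2 response minus the WT response. Of the 81 genes 1 passed, Kcns2, with a negative value, beside 0.247% of all genes in either direction and 0.077% with a negative value. Its interaction was -0.74 ± 0.11 (adjusted p = 0.0014), and under HSP990 all R6/2 arrays lay below all WT arrays (log2 change -1.03 ± 0.07, adjusted p = 5.89e-12). A second, dimmer probe set of Kcns2 gave an interaction of -0.72, with -0.58 in R6/2 and 0.14 in WT, and did not pass over all probe sets (adjusted p = 0.0918). No other interaction passed: Kcna5 was at 0.74 ± 0.29 (adjusted p = 0.267), Kcnk6 at 0.47 ± 0.13 (adjusted p = 0.11) and Kcnv1 at -0.53 ± 0.23 (adjusted p = 0.334), so a difference between genotypes was not shown for them.

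More than 1 probe set read 45 of the 81 genes. The mean of probe sets called 27 Kcn genes on vehicle, 22 of them among the 24 called above. Under HSP990 it called 27, of which 22 were among the 23 called above. For the genes called between the genotypes on vehicle, 24 of 25 other probe sets had the same direction, 14 of them past the test over all probe sets and 0 called the opposite way. Under HSP990 the numbers were 22 of 27, 19 and 0. Genes not called were not counted in this way. For Kcna6 1 dimmer probe set ran from 4.75 to 5.23 in R6/2 vehicle and 5.28 to 5.89 in WT vehicle arrays. Under HSP990 it ran from 4.79 to 5.27 in R6/2 and 5.52 to 6.22 in WT arrays. For Kcnma1 1 ran from 6.79 to 7.32 in R6/2 HSP990 and 7.43 to 7.78 in WT HSP990 arrays. The other dimmer probe sets of both genes overlapped between the genotypes. By the chosen probe sets, 30 of the 81 genes were called at least once over the 5 comparisons and 51 in none.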

How the data were processed

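Total RNA of mouse striatum was labelled with a 3' in vitro transcription kit and hybridised to Affymetrix arrays, per the labels' protocols. The authors deposited log2 values of 45101 probe sets, normalized between arrays (medians 5.73 to 5.78); how they did so is not given in the sources used, and the series' design text names RACE for quality control. As arrays were used as deposited, their number and probe design limit the precision.

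Of these, 64 were controls, 34945 had 1 platform symbol, 932 several and 9160 none; 204 single-symbol ones matched no entry of the RefSeq gene table and kept their symbol. Each of 18193 genes took its single-symbol probe set with the highest mean over 32 arrays, without a filter. Group means were fitted with limma 3.58.1 in R 4.3.3 (data.table, version 1.17.8), moderated two-sided tests were adjusted by Benjamini-Hochberg over all genes within each of 5 comparisons, with calls made below an adjusted p of 0.05. The fit was tested on simulated data. Alternatives covered normalization, centring, dim probe sets, the mean of probe sets, the groups fitted, the variance model, array weights, a replicate block, a residual component, 3' signal and each array left out.

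The genes and lists were chosen with earlier results of these data known. Genes named are all Kcn genes called (full statistics for up to 12 per comparison), a list of striatal channel genes whatever their values (some of them not reported here), and up to 4 partner genes per comparison. Kcnj13, Kcne2, Kcnt2 and the other probe sets of Kcna6, Kcnc1, Kcnd2, Kcnh3, Kcnj3, Kcnk13, Kcnma1, Kcnip2 and Kcnab1 were named after their values were seen. The labels give replicate numbers but no animals, so p-values cover only the variation among these arrays, which may be technical. Same-numbered arrays of different groups had correlated deviations of -0.292 to 0.377, so numbers were not taken as pairs.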

Additional observations from a re-analysis of the deposited data

Results flagged for a closer look

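In 28 Kcn genes checked in each group (112 checks), 10 had 1 array whose gap to the nearest other exceeded Dixon's 95% critical value; chance gives about 1 in 20. Kcna1 was at 10.18 in R6/2 HSP990 replicate 2, below the others (10.46 to 10.59), and Kcnj12 at 6.39 in R6/2 HSP990 replicate 1, above the others (5.81 to 6.03). Kcna2 was at 9.004 in R6/2 vehicle replicate 1, below the others (9.74 to 9.96), and Kcnn2 at 8.74 in R6/2 vehicle replicate 7, above the others (7.31 to 7.86). Kcnj4 was at 7.82 in WT HSP990 replicate 5, below the others (8.54 to 9.07). In WT vehicle arrays the remaining values were all low ones: replicate 7 was at 8.29 for Kcna5 (others 9.07 to 9.64) and at 6.18 for Kcnk6 (others 6.59 to 6.85). Replicate 4 was at 10.73 for Kcnip2 (others 11.04 to 11.20) and at 8.92 for Kcnt1 (others 9.18 to 9.30), and replicate 6 was at 7.61 for Kcnip3 (others 8.28 to 8.64).

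The response of Kcns2 to HSP990 differed between the genotypes by the interaction test of limma, with a log2 difference of -0.74 (R6/2 response minus WT response).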

How the results depend on the processing

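No Kcn gene's call changed direction under the alternatives run. On vehicle, 19 (groups compared alone) to 27 (mean of probe sets) Kcn genes were called, and 20 to 25 with 1 array left out, all lower except Kcnt2, which was called higher without R6/2 vehicle replicate 2 (log2 change 0.69, adjusted p = 0.0407) or 5 (0.67, 0.0458); 16 of the 24 calls held throughout. Under HSP990 21 to 29 genes were called, 21 to 24 with 1 array left out, and 19 of the 23 calls held throughout. For HSP990 in R6/2 the count of 3 became 6 with array weights, 5 with the leading residual component and 5 with the mean of probe sets, and 2 to 5 with 1 array left out (5 without R6/2 vehicle replicate 1). For HSP990 in WT the count of 4 became 9 with array weights and 7 with the groups compared alone, and 3 to 6 with 1 array left out. The interaction of Kcns2 held throughout, and the count was 1 to 2 with 1 array left out (2 without WT vehicle replicate 7). The cause of these moves was not tested. With the replicate number as a block the counts were 23, 22, 3, 4 and 1 in the same order; calls lost under it were those of Kcne4 on vehicle (adjusted p = 0.0697), Kcnh5 (0.106) and Kcna5 (0.104) between R6/2 and WT under HSP990, and Kcnn2 in WT (0.149). Probe sets near the bottom of the scale, such as that of Kcnj2, limit what can be seen for the 34 dimmer genes.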

Other observations

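Dimmer probe sets of 2 accessory subunits, singled out after their values were seen, stood in the same order of groups as Kcns2. For Kcnip2 a second probe set had a lowest, median and highest log2 level of 3.79, 4.47 and 6.10 in R6/2 HSP990, 4.84, 5.54 and 6.51 in R6/2 vehicle, 4.64, 7.44 and 8.34 in WT HSP990 and 4.12, 6.61 and 7.09 in WT vehicle arrays. Its log2 difference for HSP990 was -0.81 ± 0.45 in R6/2 and 0.88 ± 0.43 in WT, and the interaction of -1.69 ± 0.62 did not pass the test of limma over all probe sets (adjusted p = 0.239). For Kcnab1 a second probe set had an interaction of -1.20 ± 0.64 (adjusted p = 0.426), with 4.19, 6.37 and 7.62 in R6/2 HSP990, 5.78, 7.04 and 7.85 in R6/2 vehicle, 6.45, 8.26 and 9.07 in WT HSP990 and 6.11, 7.35 and 8.79 in WT vehicle arrays. The groups overlapped in both genes, and their brighter probe sets, given above, were not called for HSP990 in either genotype.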
